A study of Homo sapiens with 6 samples.

Results

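The enzymes that turn squalene into cholesterol were followed in 12Z cells, a human epithelial line derived from endometriosis, after knockdown of SMARCA4, the gene of the SWI/SNF chromatin remodelling ATPase BRG1. The 9 genes, of 58336 counted, were taken by name and are given in pathway order as SQLE, LSS, CYP51A1, TM7SF2, MSMO1, NSDHL, EBP, SC5D and DHCR7. The siBRG1 group held 3 libraries of cells transfected with 50 nM of an siRNA against SMARCA4. The control group held 3 libraries of cells given 50 nM of a non-targeting siRNA. Both groups were grown in 10% serum, had a medium change at 24 h, were moved to 0.5% serum at 48 h and harvested at 72 h. Neither group carries another genetic change in the labels. All cells were of a single line, and the labels do not call the replicates separate cultures. The p-values therefore measure library-to-library spread alone, which could be technical. The protocol text also times RNA extraction from a drug or vehicle treatment, and no label gives such a treatment to any of the 6 libraries. The labels mark the 3 control libraries as reanalysed from an earlier deposit and give the 3 siBRG1 libraries no such mark, so deposit and knockdown cannot be told apart for any value below. In bulk RNA, fewer cells with a transcript and less of it per cell also cannot be told apart.

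Sterol-ring synthesis starts when squalene is oxidised and folded into lanosterol, the first sterol, and goes on in the endoplasmic reticulum by removing methyl groups, shifting double bonds and reducing them until cholesterol is formed. The genes are known targets of SREBP2, a membrane-bound transcription factor that is released to the nucleus when sterols in the endoplasmic reticulum run low. NF-Y, which binds CCAAT boxes, is a known partner of SREBP at such promoters. Endometriotic tissue is known to make estrogens, for which cholesterol is the starting material.

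Promoter windows are shown as a description of the sequence near the start sites. Each window runs from 250 bases before to 50 after a RefSeq start on GRCh38.p14, 5′ to 3′ on the gene's strand, and 8 of the 9 genes had an entry. CCAAT, searched on both strands, was found in 7 of the 8 first-listed windows (those of LSS, TM7SF2, MSMO1, NSDHL, EBP, SC5D and DHCR7) and in 34.6% of all 35116 windows in the table. The windows with the most matches and the first-listed one of DHCR7 follow, with CCAAT or its reverse complement in capitals. Another DHCR7 window, not shown, held 0 matches.
NSDHL, chrX:152830813-152831112, plus strand: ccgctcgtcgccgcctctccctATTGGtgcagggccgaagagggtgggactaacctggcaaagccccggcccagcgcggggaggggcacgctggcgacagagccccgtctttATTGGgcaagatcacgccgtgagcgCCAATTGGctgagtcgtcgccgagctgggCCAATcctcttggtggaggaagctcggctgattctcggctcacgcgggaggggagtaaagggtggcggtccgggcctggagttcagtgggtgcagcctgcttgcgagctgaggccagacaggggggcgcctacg
MSMO1, chr4:165327419-165327718, plus strand: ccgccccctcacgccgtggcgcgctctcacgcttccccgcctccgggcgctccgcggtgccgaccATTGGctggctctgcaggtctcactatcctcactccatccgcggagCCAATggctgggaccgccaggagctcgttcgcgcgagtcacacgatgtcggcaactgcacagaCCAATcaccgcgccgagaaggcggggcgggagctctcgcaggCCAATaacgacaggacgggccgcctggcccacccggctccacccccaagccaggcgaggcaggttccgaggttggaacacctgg
EBP, chrX:48521558-48521857, plus strand: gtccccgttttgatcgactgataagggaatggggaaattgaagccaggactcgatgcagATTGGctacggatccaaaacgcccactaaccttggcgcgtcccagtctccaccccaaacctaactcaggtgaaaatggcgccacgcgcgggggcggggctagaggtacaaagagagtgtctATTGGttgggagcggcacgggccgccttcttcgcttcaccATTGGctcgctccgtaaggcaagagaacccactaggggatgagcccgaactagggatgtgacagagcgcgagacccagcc
DHCR7, chr11:71448344-71448643, minus strand: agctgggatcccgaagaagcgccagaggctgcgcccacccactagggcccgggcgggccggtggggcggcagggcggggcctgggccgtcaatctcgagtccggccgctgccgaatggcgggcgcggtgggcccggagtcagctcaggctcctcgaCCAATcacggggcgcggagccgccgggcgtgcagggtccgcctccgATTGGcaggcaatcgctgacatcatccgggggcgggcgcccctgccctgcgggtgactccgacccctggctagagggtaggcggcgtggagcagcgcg
NSDHL held 5 matches, of which a forward and a reverse one overlap, MSMO1 held 4, EBP 3 and DHCR7 2. The window of CYP51A1 held 0. On the gene's own strand alone, CCAAT stood in 3 of the 8 windows and in 19.6% of all windows. The GC box GGGCGG was found in 7 of the 8 and in 45.0% of all, and the E-box CANNTG in 7 of the 8 and in 68.7% of all. The sterol regulatory element spelled TCACNCCAC was found in 0 of the 8 windows and in 1.13% of all, which says only that these letters are not in these windows. These matches are descriptions of sequence and not of binding, and their relation to the fold changes was not tested.

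All 9 sterol-ring enzymes rose in siBRG1 cells, each by more than 2-fold, and all 9 passed the count filter. Expression is given as CPM, a gene's counts scaled to a common library total normalised by TMM, and a value after ± is the SD over the 3 libraries of a group unless marked SE. Each log2 fold change divides siBRG1 by control and has its standard error (SE), and adjusted p-values come from edgeR's quasi-likelihood test over all 15830 genes tested (Benjamini-Hochberg, call under 0.05). Of all genes tested, 72.6% were called in either direction, 36.1% were called higher in siBRG1 and 10.4% were called higher by at least 2-fold. The median log2 fold change of the 9 was 1.79, against −0.01 over all genes tested. Summed over the 9 genes, the level was 1725, 1833 and 1722 CPM in the siBRG1 libraries and 433, 433 and 421 CPM in the control libraries, a ratio of means of 4.11. The largest rise was that of CYP51A1 and the smallest that of NSDHL, or, once trends with GC content and length were taken out, that of EBP (log2 fold change 1.22 for EBP and 1.23 for NSDHL).

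**Figure D1:**
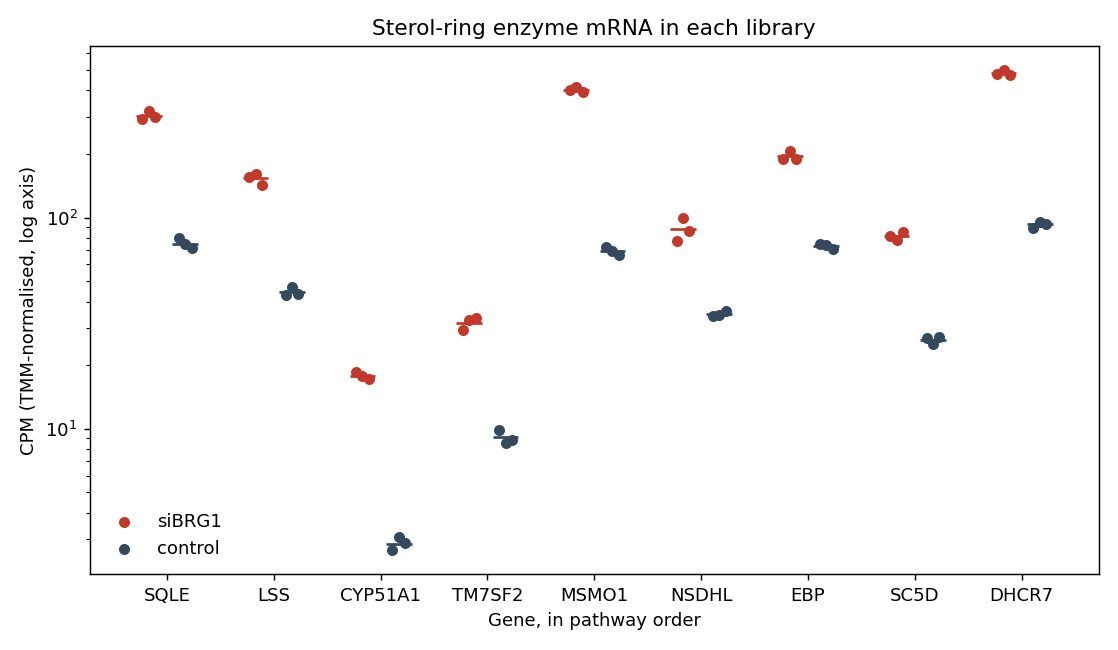
CPM of each gene (TMM-normalised, log axis) in each of 3 siBRG1 libraries (red) and 3 control libraries (dark), in pathway order, with bars at the group means. Every siBRG1 point lies above every control point of its gene, from 2.16 times for NSDHL to 5.61 times for CYP51A1 between the nearest libraries.

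The knockdown itself was seen in the libraries, with SMARCA4 at 63.3 ± 14.4 CPM in siBRG1 and 257.7 ± 11.8 CPM in controls (log2 fold change −2.03, SE 0.161, adjusted p = 0.000267). Gene counts ran from 12391161 to 13369692 per siBRG1 library and from 40228678 to 49720320 per control library, so control libraries were deeper. Reads per gene did not always follow this. DHCR7 had 19008 summed counts in siBRG1 and 11838 in control, while NSDHL had 3437 and 4463. Reads matching several places made up 18.5 to 21.5% in siBRG1 and 9.57 to 10.0% in control, and reads in no annotated feature 3.85 to 4.20% and 12.8 to 13.6%. Their part in the results was not tested. Of the listed markers, the epithelial ones summed to 3476 to 3733 CPM in siBRG1 and 3935 to 4020 CPM in control. Most of that came from the keratins KRT8 and KRT18, while EPCAM was low (1.61 ± 0.264 CPM in siBRG1 and 0.251 ± 0.0889 CPM in control). Members moved both ways: KRT7 fell to 36.9 ± 4.50 CPM in siBRG1 against 196 ± 9.10 CPM in controls (log2 fold change −2.40) and KRT19 fell (−0.54), while EPCAM and CDH1 rose (2.63 and 0.93). Fibroblast markers (4 of 4 with counts) summed to 2887 to 3083 CPM against 2005 to 2146 CPM, immune markers (4 of 5) to 9.83 to 10.4 CPM against 4.08 to 5.50 CPM, and endothelial markers (3 of 3) to 2.35 to 4.01 CPM against 2.39 to 2.96 CPM. Most of the fibroblast sum was COL1A1 (log2 fold change 0.38). LUM rose to 389 ± 23.3 CPM in siBRG1 against 82.3 ± 8.75 CPM in controls (2.24), while DCN rose by 2.15 and PDGFRA by 0.36. CD14 rose among the immune markers (1.19). Among the endothelial ones, all low, CDH5 rose (1.96) and VWF fell (−0.69). CD3E and the hepatocyte genes ALB, APOB and TTR had no counts in any library. The part of the marker differences in the sterol results was not tested.

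Squalene is first oxidised by SQLE, squalene epoxidase, a rate-limiting enzyme whose protein is degraded when cholesterol is plentiful. SQLE (ENSG00000104549.11, chromosome 8, 124998497 to 125022283 on GRCh38, plus strand) stood at 292, 320 and 300.4 CPM in siBRG1 libraries, against 79.7, 74.7 and 71.4 CPM in control libraries. The groups did not overlap, and replicates within a group lay close together. Across all genes tested, every siBRG1 library exceeded every control library for 36.7% of genes. The log2 fold change of SQLE was 2.01 (SE 0.0455, adjusted p = 7.98e-25).

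LSS, lanosterol synthase, then folds the epoxide into the ring system. LSS (ENSG00000160285.14, chromosome 21, 46188141 to 46228824, minus strand) had 156, 161 and 142 CPM in siBRG1 and 42.8, 47.1 and 43.6 CPM in control. Every siBRG1 value was at least 3.01 times every control value (log2 fold change 1.78, SE 0.0522, adjusted p = 4.24e-22). Antisense genes cover 7.88% of its exon bases in GENCODE 29. The strand-specific counts keep those apart.

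The first methyl group is removed by CYP51A1, lanosterol demethylase, the cytochrome P450 whose fungal counterpart is the target of azole drugs. CYP51A1 (ENSG00000001630.15, chromosome 7, 92112151 to 92134803, minus strand) had 18.6, 17.7 and 17.2 CPM in siBRG1 and 2.66, 3.06 and 2.86 CPM in control. The groups did not overlap. This was the largest rise of the 9 and rests on the fewest reads, 700 counts in siBRG1 and 364 in control when libraries are summed. Its log2 fold change was 2.64 (SE 0.122, adjusted p = 2.25e-17). In GENCODE 29, 79.3% of its exon bases are shared with the read-through genes AC000120.2 and AC000120.3 on the same strand. The counts use another annotation release, with no identifier of either read-through gene, so which exons were counted for CYP51A1 is not known and its level is uncertain. Its processed pseudogenes held 6, 16 and 0 summed counts in siBRG1 and 13, 22 and 31 in control, beside the 700 and 364 of CYP51A1 itself. They were thus a larger part relative to CYP51A1 in control, and their bearing on its fold change was not tested.

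TM7SF2 reduces the double bond left by that demethylation. TM7SF2 (ENSG00000149809.14, chromosome 11, 65111845 to 65116384, plus strand) had 29.2, 32.5 and 33.3 CPM in siBRG1 and 9.90, 8.51 and 8.88 CPM in control. The groups were well apart although its CPM was the second lowest of the 9 (log2 fold change 1.79, SE 0.0887, adjusted p = 1.07e-16). It shares 16 exon bases with its neighbour VPS51. LBR, the lamin B receptor of the inner nuclear membrane, has the same enzyme activity. It moved the other way, to 99.4 ± 1.77 CPM in siBRG1 against 127 ± 0.992 CPM in controls (log2 fold change −0.35, SE 0.0428, adjusted p = 2.48e-08).

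The remaining pair of methyl groups is removed by MSMO1, NSDHL and HSD17B7 working as a complex held by the scaffold protein ERG28. MSMO1, the methyl sterol oxidase (ENSG00000052802.12, chromosome 4, 165327623 to 165343160, plus strand), had 401, 417 and 393 CPM in siBRG1 and 72.4, 69.7 and 66.8 CPM in control. The lowest siBRG1 library stood 5.43 times above the highest control library, and MSMO1 had the smallest adjusted p of the 9 (log2 fold change 2.54, SE 0.0418, adjusted p = 2.40e-28). NSDHL, the dehydrogenase that is mutated in CHILD syndrome (ENSG00000147383.10, chromosome X, 152830967 to 152869729, plus strand), had 77.6, 99.2 and 86.7 CPM in siBRG1 and 34.3, 34.5 and 35.9 CPM in control.

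The NSDHL groups did not overlap either. NSDHL rose least as counted (log2 fold change 1.33, SE 0.0646, adjusted p = 7.06e-17) and the widest spread among siBRG1 libraries. Its coefficient of variation there was 12.4%, where counting alone gives 2.96%. HSD17B7, the ketoreductase of the complex, rose to 17.9 ± 1.80 CPM in siBRG1 against 5.51 ± 0.485 CPM in controls (log2 fold change 1.69, SE 0.114, adjusted p = 1.11e-13). ERG28 rose to 91.9 ± 5.59 CPM in siBRG1 against 34.5 ± 1.33 CPM in controls (log2 fold change 1.41, SE 0.0555, adjusted p = 5.28e-19). HSD17B7 has near-identical pseudogene copies, so its counts are uncertain. The complex members moved in 1 direction and by unequal amounts, with MSMO1 5.80-fold and NSDHL 2.52-fold higher.

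EBP shifts a double bond within the ring, and its loss causes an X-linked skeletal dysplasia. EBP (ENSG00000147155.10, chromosome X, 48521158 to 48528716, plus strand) had 188, 207 and 190.2 CPM in siBRG1 and 74.7, 74.1 and 71.1 CPM in control. The groups were apart, and EBP rose by little more than NSDHL (log2 fold change 1.41, SE 0.0451, adjusted p = 3.63e-21). SC5D, which puts in the next double bond (ENSG00000109929.9, chromosome 11, 121292453 to 121308694, plus strand), had 82.1, 78.1 and 85.0 CPM in siBRG1 and 26.8, 25.2 and 27.1 CPM in control. Its groups were likewise apart (log2 fold change 1.63, SE 0.0571, adjusted p = 3.35e-20).

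DHCR7 reduces the last ring double bond and so decides between cholesterol and vitamin D precursor, and its loss causes Smith-Lemli-Opitz syndrome. DHCR7 (ENSG00000172893.15, chromosome 11, 71428193 to 71452868, minus strand) had 479.9, 500.1 and 474 CPM in siBRG1 and 89.2, 95.7 and 93.4 CPM in control. Every siBRG1 library was far above every control library. DHCR7 had the most reads of the 9 and was 5.23-fold higher (log2 fold change 2.39, SE 0.0404, adjusted p = 4.72e-28).

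Ordered by log2 fold change, CYP51A1, MSMO1 and DHCR7 came first, SQLE next, and TM7SF2, LSS, SC5D, EBP and NSDHL after it. With GC and length trends removed the first 4 kept their places and the order after them was SC5D, LSS, TM7SF2, NSDHL and EBP, with TM7SF2 at a log2 fold change of 1.44 and SC5D at 1.67. LSS and TM7SF2 also changed places with unstranded counts, without siBRG1 replicate 3 and without control replicate 2. Among all genes tested, 0.960% had a larger log2 fold change than CYP51A1 and 6.04% a larger one than NSDHL. In the authors' deposited table the log2 fold changes of the 9 had the same order, from 1.31 for NSDHL (SE 0.0690) to 2.62 for CYP51A1 (SE 0.144).

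**Figure D2:**
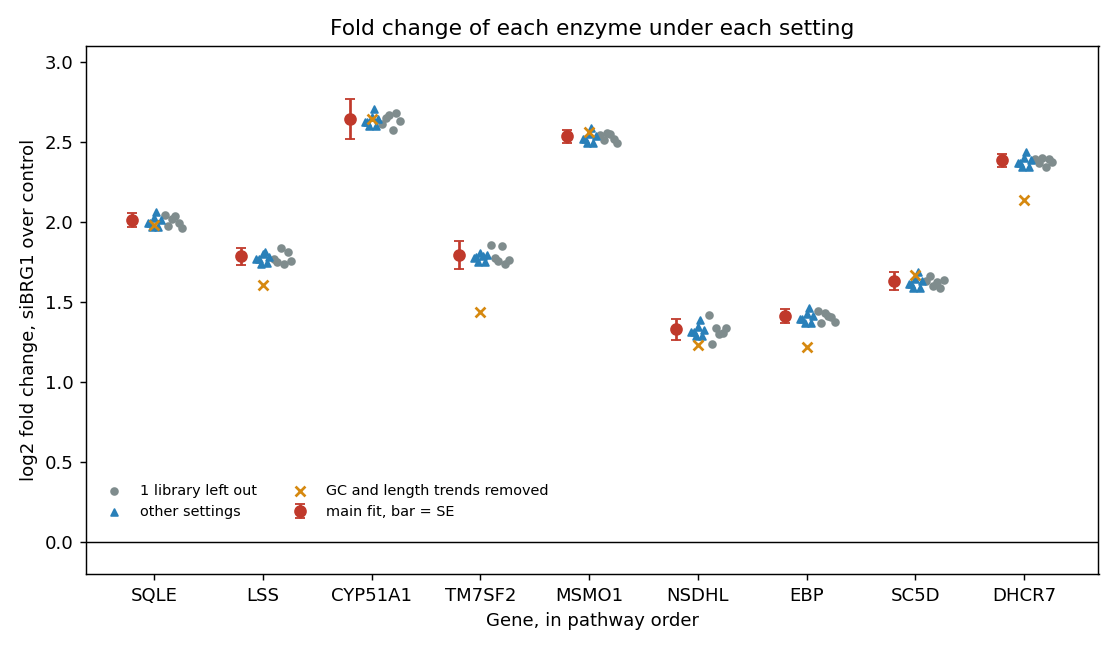
Log2 fold change (siBRG1 over control) of each gene as reported (red, marked main fit, bar = SE), with 1 library left out (grey), with GC and length trends removed (orange cross) and under the other settings (blue). No value falls to 1.2 or below, and the crosses lie lowest for TM7SF2, LSS, EBP, NSDHL and DHCR7.

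Because the rises were unequal, the make-up of the summed level differed between groups. MSMO1 held 23.0 ± 0.273% of the summed CPM in siBRG1 and 16.2 ± 0.455% in control, and DHCR7 27.5 ± 0.270% and 21.6 ± 0.888% (SD, n = 3). CYP51A1 was the other gene with a larger share in every siBRG1 library. EBP held 11.1 ± 0.203% in siBRG1 and 17.1 ± 0.198% in control, and NSDHL 4.98 ± 0.460% and 8.15 ± 0.334%. LSS, TM7SF2 and SC5D also had a smaller share in every siBRG1 library, while the shares of SQLE overlapped, at 17.3 ± 0.309% in siBRG1 and 17.6 ± 0.777% in control. Set against the same sum, 96.1% of all genes tested did not overlap between groups, so a lack of overlap in these shares is the usual case. Within each library, MSMO1 stood at 1.38, 1.31 and 1.31 times SQLE in siBRG1 and at 0.909, 0.932 and 0.936 times SQLE in control, and EBP at 0.646, 0.649 and 0.633 against 0.937, 0.991 and 0.996. Library scaling cancels in these ratios. They are not per length, so they show how a gene's ratio to SQLE differed between groups and not which gene was the more abundant. For the ratio to SQLE, 95.9% of all genes tested did not overlap.

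**Figure D3:**
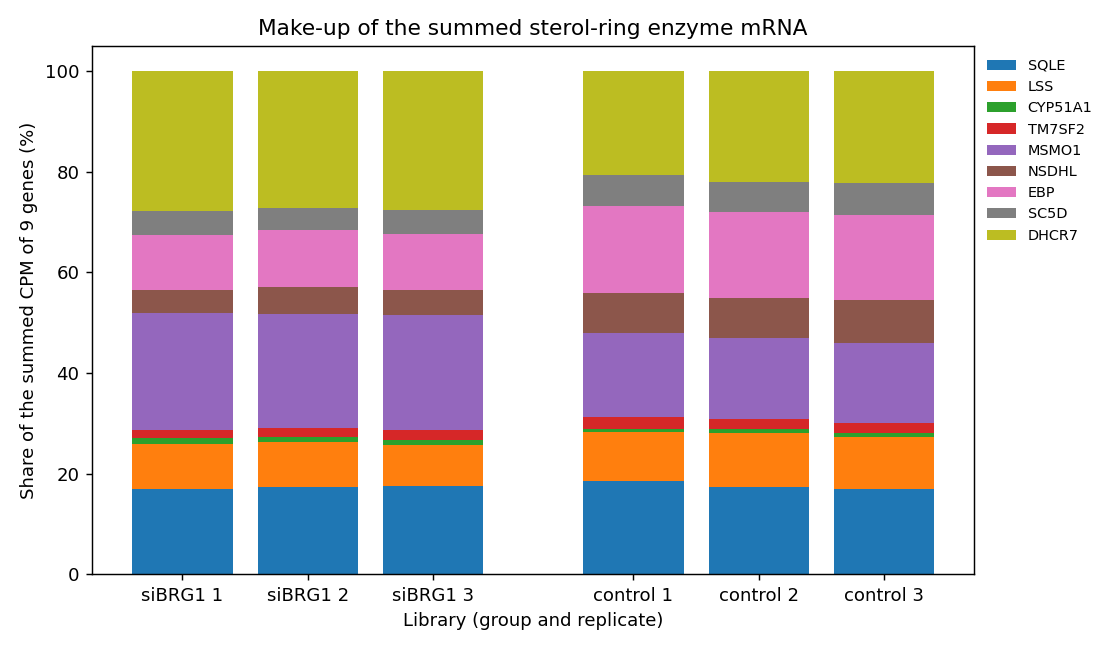
Share of the summed CPM of the 9 genes (%) held by each gene, as stacked bars for 3 siBRG1 and 3 control libraries. The DHCR7 and MSMO1 blocks are taller in siBRG1 and the EBP and NSDHL blocks shorter, and the SQLE shares overlap.

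Levels of different genes were compared per kilobase of exon, as CPM per kb. In siBRG1 the order was MSMO1 (139.7 ± 4.24 CPM per kb), DHCR7, EBP, SQLE, NSDHL, LSS, SC5D, TM7SF2 and CYP51A1 (4.97 ± 0.197 CPM per kb), and no neighbours overlapped over libraries. The place of CYP51A1 depends on the exons counted: over the 740 exon bases not shared with the read-through genes it would stand at 24.1 ± 0.956 CPM per kb in siBRG1, above LSS at 21.2 ± 1.40, and at 3.86 ± 0.272 CPM per kb in control, above TM7SF2 at 2.67 ± 0.212. In control EBP stood first at 30.4 ± 0.807 CPM per kb, ahead of MSMO1 at 24.1 ± 0.975 and DHCR7 at 22.3 ± 0.796 CPM per kb. SQLE and NSDHL, both at 17.5 CPM per kb in control, overlapped over libraries. With the length of the longest transcript, DHCR7 overlapped MSMO1, EBP overlapped SQLE and SC5D overlapped LSS in siBRG1. In control that length put DHCR7 (34.8 ± 1.24 CPM per kb) above MSMO1 (30.7 ± 1.24) and SC5D (10.7 ± 0.423) above LSS (9.02 ± 0.459), and SQLE (25.4 ± 1.42) no longer overlapped NSDHL (18.1 ± 0.457). The order of DHCR7 and MSMO1, and that of SC5D and LSS, therefore depends on the length used. For EBP and SQLE in siBRG1, and for SQLE and NSDHL in control, only the overlap does.

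Antisense reads were few for 8 of the 9 genes, with group means from 0.0895% to 2.09% of a gene's stranded reads. For TM7SF2 the antisense share was 0.321 ± 0.138% in siBRG1 and 6.03 ± 1.60% in control, from 1, 2 and 1 antisense reads against 23, 28 and 22. These are raw reads, and the control libraries were deeper. The EBP share was 0.374 ± 0.111% in siBRG1 and 0.698 ± 0.223% in control, from 11, 12 and 6 antisense reads against 35, 17 and 16. Sense reads are in the denominator of this share, so it falls where they rise, as they did for both genes. The comparison of shares is therefore not independent of the fold change, and a lower share need not mean less antisense RNA. For both genes the libraries of the groups did not overlap (exact two-sided permutation p = 0.1 each, the smallest that 3 against 3 allow, and 0.45 adjusted over 9 genes), as was the case for 26.5% of the 15364 tested genes with stranded reads in every library. Sense counts alone enter the fold change of TM7SF2.

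The steps before the ring enzymes were higher as well, as were most of the listed genes of sterol sensing and transport. All 9 enzymes from acetyl-CoA to squalene rose, 8 of them by at least 2-fold, with a median log2 fold change of 2.23. Over all genes tested, 36.1% were called higher, 10.4% higher by at least 2-fold and 36.5% lower. HMGCS1, IDI1, FDPS and MVD rose most (log2 fold change 3.16, 2.81, 2.63 and 2.59), and PMVK was the member under 2-fold (log2 fold change 0.87). Of 10 genes of sterol sensing and transport, 9 rose and 0 were called lower, with a median log2 fold change of 0.60. INSIG1, which holds SREBPs in the endoplasmic reticulum, SREBF2 and the sterol carrier gene STARD4 rose by at least 2-fold (log2 fold change 3.08, 1.74 and 1.46). SREBF2 encodes SREBP2 itself and stood at 360.1 ± 13.5 CPM in siBRG1 and 107.8 ± 2.69 CPM in control. SCAP, the SREBP escort, was called higher (log2 fold change 0.34), but not after trends with GC content and length were taken out (0.07, adjusted p = 0.211). MBTPS2, a protease that releases SREBPs, missed the threshold (log2 fold change −0.13, adjusted p = 0.0587).

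Among 9 electron donors, scaffold and turnover factors of the ring enzymes, 6 rose, 2 fell and 1 did not pass. Their median log2 fold change was 0.45. Of all genes tested, 36.1% were called higher and 36.5% lower. Of these 9, ERG28 alone rose by at least 2-fold. POR, the reductase that feeds electrons to CYP51A1 and SQLE, rose by less (log2 fold change 0.77, SE 0.0582), as did CYB5A, CYB5B, CYB5R3 and PGRMC1. Once trends with GC content and length were taken out, CYB5R3 lost its call and its direction (log2 fold change −0.03, adjusted p = 0.516, against 0.21 as counted). MARCH6, the ubiquitin ligase that targets SQLE protein for degradation, fell to 203 ± 9.63 CPM in siBRG1 against 247 ± 3.52 CPM in controls (log2 fold change −0.28, SE 0.0398, adjusted p = 3.05e-07). PGRMC2 was the other that fell (log2 fold change −0.18, SE 0.0470), and CYB5R1 missed the threshold (log2 fold change 0.10, adjusted p = 0.268).

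All 8 fatty acid genes under SREBP control rose, with a median log2 fold change of 1.93. FADS2, SCD, FADS1, ACSS2 and FASN rose by at least 2-fold (log2 fold change 3.40, 3.20, 2.27, 2.09 and 1.76). Of 9 genes of sterol efflux, oxidation and esterification, 6 were expressed highly enough to be tested, and 4 rose and 2 fell (median log2 fold change 0.94). ABCG1 had 7 counts in siBRG1 and 30 in control, CYP7B1 had 0 and 1, and CH25H had none. CYP27A1, which oxidises the cholesterol side chain, and NR1H3, which encodes LXR alpha, rose by at least 2-fold (log2 fold change 3.09 and 1.58), and MYLIP and NR1H2 rose by less. Both of the former were low. CYP27A1 stood at 5.33 ± 0.748 CPM in siBRG1 and 0.614 ± 0.140 CPM in control, from 209 and 80 summed counts. NR1H3 stood at 11.3 ± 0.596 CPM and 3.75 ± 0.196 CPM. ABCA1, the cholesterol exporter, fell to 22.4 ± 3.20 CPM in siBRG1 against 51.4 ± 3.75 CPM in controls (log2 fold change −1.20, SE 0.0795, adjusted p = 8.51e-14). SOAT1, which esterifies cholesterol for storage, fell too (log2 fold change −1.08, SE 0.0467, adjusted p = 5.17e-18). Of all genes tested, 36.1% were called higher and 36.5% lower, and 11.1% were called lower by at least 2-fold. These lists are set beside the ring enzymes by counts only, and no difference between lists was tested.

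**Figure D4:**
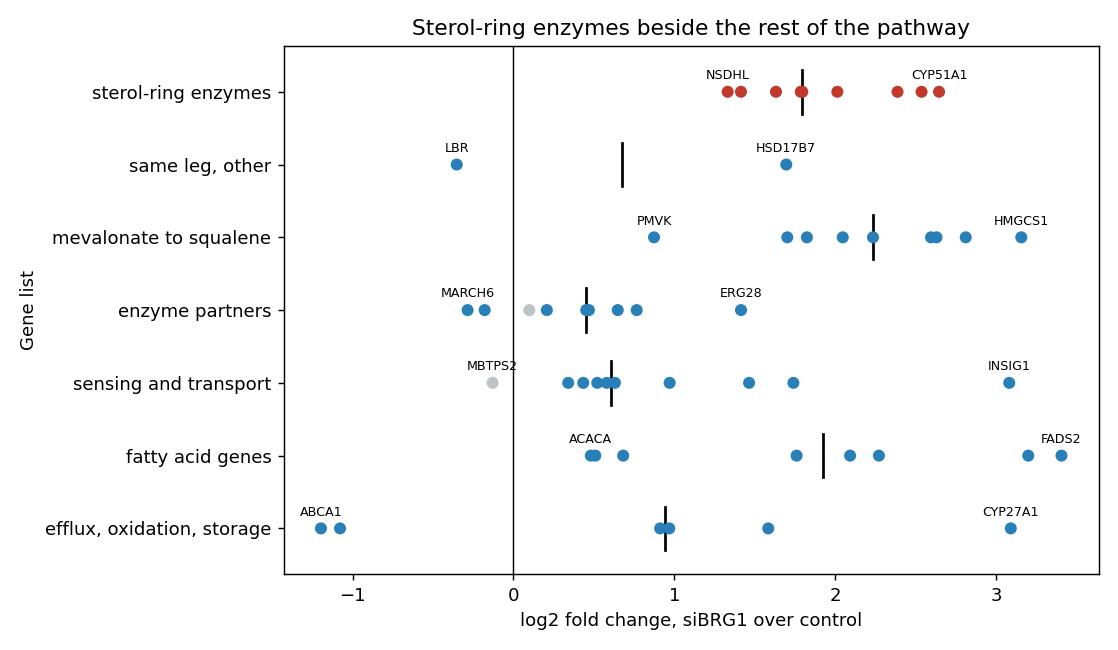
Log2 fold change (siBRG1 over control) of the 9 sterol-ring enzymes (red) and of the tested genes of 6 other pathway lists (blue, adjusted p under 0.05, and grey, not passed), with bars at the list medians. The ring enzymes all lie between 1.33 and 2.64, while LBR, MARCH6, PGRMC2, MBTPS2, ABCA1 and SOAT1 lie below 0.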

How the data were processed

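RNA of 12Z cells was sequenced in 6 libraries, 3 siBRG1 and 3 control, from 500 ng of total RNA each with a directional mRNA kit, per the labels' protocols. The authors deposited raw counts per gene as STAR tabulates them, unstranded and for both strands. The submitters' processing notes list STAR, cutadapt, Trim Galore, DESeq2 and FastQC, with no version, and the build GRCh38.p12. No source used here gives the annotation release. Reads assigned to no gene (27.7 to 30.3% per siBRG1 library, 28.5 to 29.5% per control library) were left out. The authors' deposited table holds, per the file headers, a mean normalised signal, log2 fold changes with SE, Wald score and weight, and p-values.

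Of 58336 gene identifiers 56888 matched GENCODE 29 with version and 58216 without. Sense counts, the larger stranded column, were fitted in edgeR 4.0.16 (R 4.3.3) with TMM, filterByExpr and robust quasi-likelihood fits on group, two-sided. The SE is the absolute log2 fold change over the square root of F. Simulated counts had 1 dispersion for all genes (0.00171) and 200 changed genes, and 89.8% of those changed 2-fold were recovered. In the data 72.6% of genes were called, so this rate does not describe them. DESeq2 1.42.0 and other settings were alternatives. At 3 counts the floor is 0.235 CPM in siBRG1 and 0.0690 CPM in control on average. No replicate pair looked like a library deposited again (chi-square over its degrees of freedom 2.64 to 4.55).

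Genes were named by rule: the 9 enzymes and SMARCA4; of each other list the members called at 2-fold or more, up to 4 by size, and members behind counts of 5 or fewer; and 5 genes nearest in profile. Some listed genes are not reported here and were left out of the lists' counts and medians. The members and lists were chosen with earlier results of these data known. Promoter windows are from RefSeq on GRCh38.p14. Protein sequences were not used here, so the planned comparison of protein identity was not run.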

Additional observations from a re-analysis of the deposited data

How the results depend on the processing

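All 9 sterol-ring enzymes were called higher under each of the 14 alternatives, and the largest adjusted p of any of them under edgeR was 3.94e-12, without control replicate 1. Removing GC and length trends lowered 5 of them most, TM7SF2 to a log2 fold change of 1.44, LSS to 1.61, EBP to 1.22, NSDHL to 1.23 and DHCR7 to 2.14, each under 1.5 times from its reported value. Leaving out 1 library at a time gave 1.24 to 1.42 for NSDHL and 2.57 to 2.68 for CYP51A1. With no count filter the median over all genes was −0.30, which put the median of the 9 at 2.05 above it, against 1.80 with the filter. Among sensing and transport genes, 1 (MBTPS2) was called lower with DESeq2 size factors, with no count filter and with protein-coding genes alone, and 0 to 1 when 1 library was left out. With GC and length trends removed, genes called higher numbered 8 against 9 in that list (SCAP lost) and 5 against 6 among enzyme partners (CYB5R3 lost). No sign was seen that replicate numbers pair the samples. The correlations of deviations between same-numbered libraries were −0.0355, 0.0234 and −0.000665, and not every sample correlated best with its own number. With the replicate block all 9 enzymes were called higher, and 5528 genes in all against 5716. Of the 5 genes nearest in profile, 0 were shared between distance and Pearson r. The deposit of the control libraries coincides with the group, and depth limits CYP51A1 most, where counting alone gives 6.56% error per siBRG1 library and 9.09% per control library.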

Other observations

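Outside the pathway lists, 5 genes lay nearest the mean profile of the 9 enzymes over the 6 libraries, out of 11226 with a mean of at least 100 counts. They were PRDX5 (a peroxiredoxin), GYPC (a glycophorin), BTN3A2 (a butyrophilin), CAPG (an actin-capping protein) and NNMT (nicotinamide methyltransferase). Their root mean square distances from that profile were 0.0341, 0.0654, 0.0662, 0.0668 and 0.0685 on the log2 CPM scale, against 0.0544 for SQLE and 0.343 for CYP51A1. Their log2 fold changes ran from 1.86 (BTN3A2) to 2.01 (GYPC). In total 335 such genes lay as near as CYP51A1, the farthest of the 9. The profile is mostly the difference between groups, all libraries share their source and depth differs by group, so nearness is a description of these libraries.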
